A study of Mus musculus with 4 samples.

Results

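The genes described here encode AP-1 proteins (Fos, Fosb, Fosl1, Fosl2, Jun and Jund), the immediate early proteins Egr1, Atf3 and Ier3, and Myc. These 10 genes were chosen by name, with earlier results of these data known, among 22911 gene symbols that matched the probes of the array. They were measured by 14 of its 56605 probes. The compared cells were ID8G cells, a line of ID8 mouse ovarian cancer cells transduced with a retrovirus encoding GFP and sorted for it, and GO2 cells, which are ID8G cells recovered from omental tumors after 2 successive intraperitoneal passages in syngeneic C57BL/6 J mice. GO2 cells were sorted as CD45-negative and GFP-positive and were then cultured in the same medium with serum, insulin, transferrin and selenite as ID8G cells. Each line was hybridized to 2 Agilent arrays, and both carry the GFP vector. GO2 is a single selected line, and no source states that the 2 arrays of a line came from separate cultures, so the p-values measure the spread between these arrays, which may be technical.

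AP-1 is a family of dimers of basic leucine zipper proteins. JUN proteins pair with each other or with FOS proteins, FOS proteins need a JUN partner, and the dimers bind DNA at promoters and enhancers. Immediate early genes are transcribed within minutes of a stimulus such as serum, without new protein synthesis, mainly through MAP kinases that act on SRF and its ETS partners. MYC pairs with MAX and acts on genes of ribosome production, metabolism and the cell cycle, and its gene also responds early to growth factors.

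Egr1 was 2.94-fold higher in GO2 cells (95% interval 2.64 to 3.28), and Ier3 was 3.81-fold lower (3.45 to 4.21). Fos, Fosl1 and Fosl2 were higher in GO2 cells by 1.96-fold, 1.75-fold and 1.41-fold, and Atf3, Jund and Myc were lower by 1.56-fold, 1.40-fold and 1.21-fold. The transcripts of Jun and Fosb did not pass the test. Each value is the difference between the means of 2 GO2 and 2 ID8G arrays at 1 probe per gene, and a gene passed where its adjusted p from limma was below 0.05.

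Of the 10 genes, each taken at its brightest tested probe, 8 passed the test, 4 higher and 4 lower in GO2 cells. Fos, among the 4 higher, entered the test only through its GO2 arrays. Where all 4 arrays had to be well above background, Fos was not tested, and 3 genes were higher and 4 lower. Of all 28368 tested probes, 35.9% passed in either direction, 17.0% higher and 18.9% lower. With a difference of at least 2-fold required as well, 1 gene was higher (Egr1) and 1 was lower (Ier3), where the shares of all probes were 4.50% and 3.34%, or 7.84% in either direction. With scaling to spike-in transcripts these shares were 3.90% and 5.03%, and the same count of 1 higher and 1 lower was found among the 10 genes. The methods' t-test with adjustment passed 0 of the 10 genes, and at an unadjusted p below 0.05 it passed 7, where limma passed 8. The median difference of the 10 genes on the log2 scale was -0.07, and that of all tested probes was -0.02, while the median absolute difference was 0.57 for the 10 genes and 0.20 for all probes. The GO2 arrays did not overlap the ID8G arrays for 9 of the 10 genes, against 73.6% of all tested probes, of which 34.0% were higher and 39.7% lower in GO2 cells. With 2 arrays against 2, an exact permutation test of a single gene cannot give a p below 0.333, so each p rests on the variance that limma pools over all probes.

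A level is the log2 intensity of a probe relative to the 75th percentile of all probes on its array, where the level is 0. Apart from the summed intensities of cell type markers, levels are compared between cell lines for the same probe, never between genes. The brightest tested probe stands for a gene. Every gene had a tested probe, and 12 of the 14 probes were tested, since the remaining probes of Fosb and Fosl2 were not well above background on both arrays of either line.

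**Figure D1:**
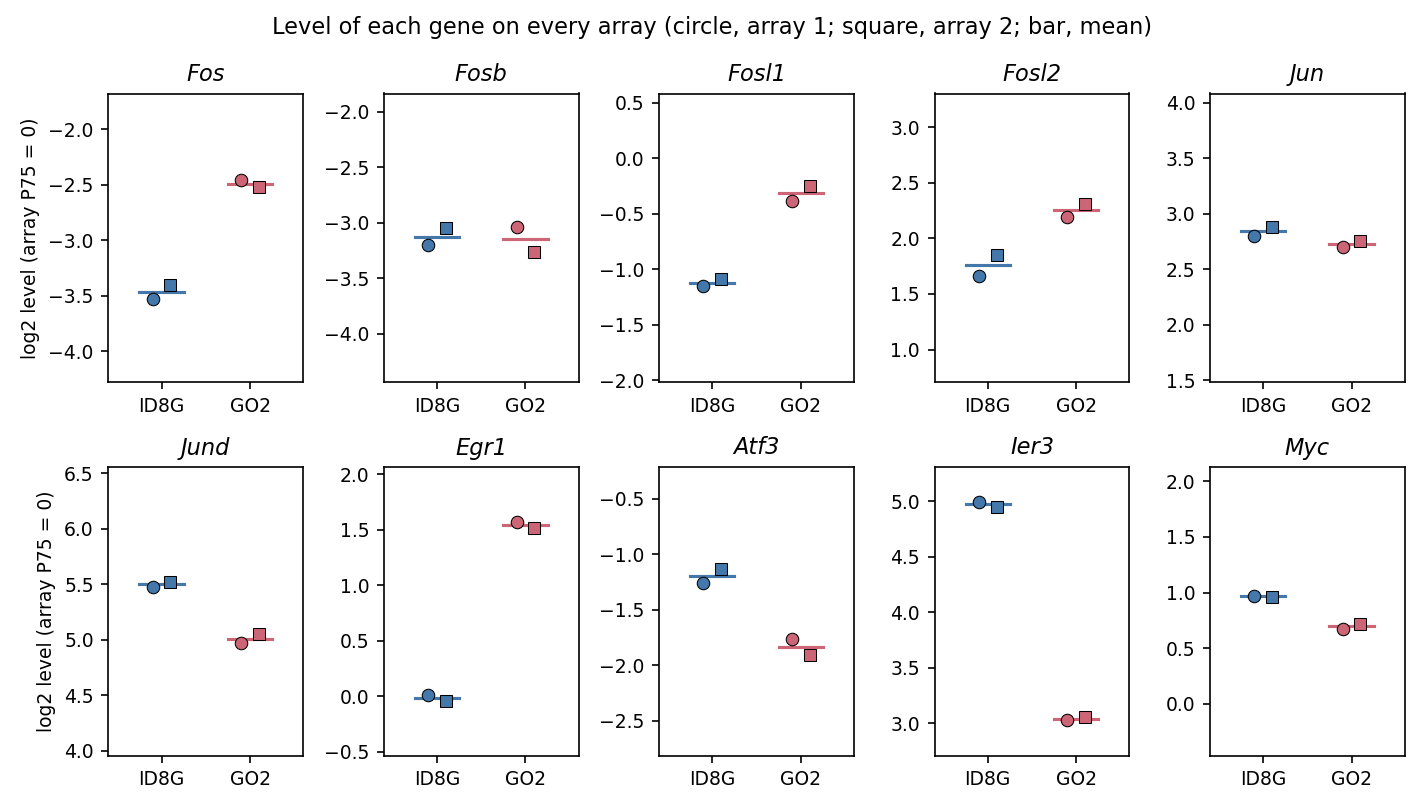
Level of each gene on every array, on the log2 scale and relative to the 75th percentile (P75), with ID8G arrays in blue and GO2 arrays in red, array 1 as a circle, array 2 as a square and the mean as a bar. All panels span the same range on the log2 scale; the arrays of the lines overlap for Fosb only, and the widest gap is that of Ier3, from 4.95 and 5.00 in ID8G cells to 3.03 and 3.05 in GO2 cells.

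Of the 4 FOS family genes, 3 were higher in GO2 cells and 1 did not pass, where 17.0% of all tested probes were higher. Fos, one of the 3, entered the test only through its GO2 arrays. Fos, the founding member and a classical serum-induced gene, was measured at -3.53 and -3.40 in ID8G cells and at -2.46 and -2.52 in GO2 cells. It was well above background on both GO2 arrays but on 1 of the 2 ID8G arrays, so its ID8G level lies at the edge of detection. The difference was 0.97 on the log2 scale (SE 0.07, limma adjusted p = 0.00208), just under 2-fold. It fell to 0.61 with normexp background correction and to 0.77 with scaling to spike-in transcripts. It exceeded 2-fold without ID8G replicate 2 (1.04) and without GO2 replicate 2 (1.01).

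Fosl1, which encodes FRA-1, had levels of -1.15 and -1.09 in ID8G cells and -0.38 and -0.25 in GO2 cells. All 4 arrays were well above background, and the GO2 arrays lay above the ID8G arrays by 0.71 to 0.90 over the 4 pairings of a GO2 with an ID8G array. The difference was 0.81 (SE 0.07, adjusted p = 0.00347). FRA-1 lacks the transactivation domain of FOS and is often the FOS protein of proliferating and invasive cells.

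Fosl2, which encodes FRA-2, had levels of 1.66 and 1.85 in ID8G cells and 2.19 and 2.31 in GO2 cells. The lines did not overlap, and the difference was 0.49 (SE 0.09, adjusted p = 0.0226). This call was lost without GO2 replicate 1 (adjusted p = 0.0726), without GO2 replicate 2 (0.104) and without ID8G replicate 1 (0.0800), and with scaling to spike-in transcripts (0.0739), where the difference was 0.29. A second, dim probe of Fosl2 was well above background on 1 GO2 array, at -3.05, and on no other array.

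Fosb, whose transcript is short-lived after stimulation, had levels of -3.20 and -3.05 in ID8G cells and -3.03 and -3.26 in GO2 cells. The lines overlapped, and the difference was -0.02 with a 95% interval from -0.31 to 0.27. Its direction turned without GO2 replicate 2 (0.09) and without ID8G replicate 2 (0.05). Its second probe was well above background on no array.

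Of the 2 JUN family genes, 1 was lower in GO2 cells and 1 did not pass, where 18.9% of all tested probes were lower. Jun, the main partner of the FOS proteins, had levels of 2.80 and 2.88 in ID8G cells and 2.70 and 2.75 in GO2 cells. The GO2 arrays lay below the ID8G arrays, but the difference of -0.12 did not pass (95% interval -0.28 to 0.05, adjusted p = 0.195). Jund, the member that is expressed steadily in resting cells and can restrain growth, had levels of 5.48 and 5.53 in ID8G cells and 4.97 and 5.06 in GO2 cells. It was lower in GO2 cells by a difference of -0.49 (SE 0.06, adjusted p = 0.00795). Its second probe, designed on another RefSeq transcript of the gene, gave -0.58 (SE 0.06, adjusted p = 0.00568). Without GO2 replicate 1 the adjusted p of the first probe was 0.0501. The third JUN gene, Junb, which is not among the 10, was higher in GO2 cells by 0.64 (SE 0.05, adjusted p = 0.00298), with levels of 3.68 and 3.70 in ID8G cells and 4.30 and 4.35 in GO2 cells, and its second probe was higher by 0.42.

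**Figure D2:**
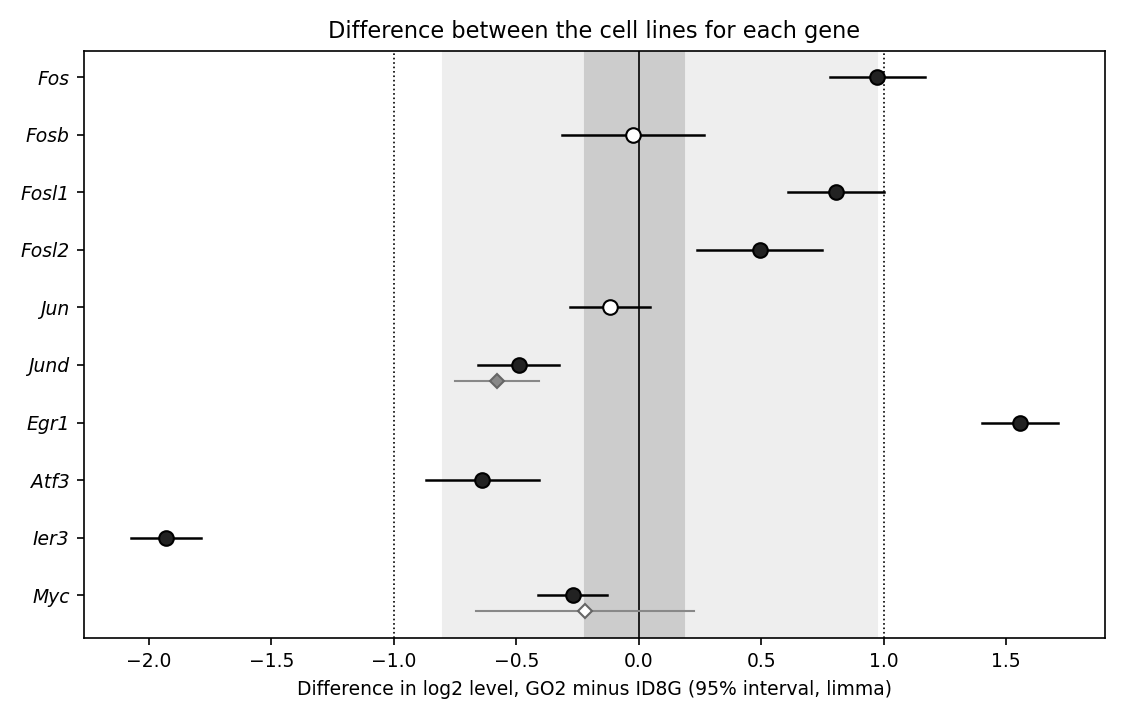
Difference in log2 level between GO2 and ID8G cells with its 95% interval (limma, 2 arrays per line) for each gene; filled circles passed an adjusted p of 0.05, open circles did not, and diamonds are second tested probes of Jund and Myc. The dark and light bands hold the middle 50% and 90% of all tested probes, dotted lines mark 2-fold, and Egr1 at 1.56 and Ier3 at -1.93 lie beyond them.

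Egr1 encodes a zinc finger transcription factor that is induced by growth factors through SRF and the ETS partner ELK1. Its levels were 0.02 and -0.04 in ID8G cells and 1.57 and 1.52 in GO2 cells. Both GO2 arrays were higher than both ID8G arrays by 1.5 or more, while the SD between arrays of a line was 0.04. The difference was 1.56 (SE 0.06, adjusted p = 0.000440), and 2.99% of all tested probes had a larger one. The difference ranged from 1.35 with spike-in scaling to 1.59 without 1 of the arrays. Nab2, a corepressor that binds EGR1 and is itself induced by it, was also higher, by 0.68 (SE 0.05, adjusted p = 0.00264), and by 0.48 at its second probe.

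Ier3, also known as IEX-1, is an early response gene of growth factors and NF-kB whose product acts on cell survival. Its levels were 5.00 and 4.95 in ID8G cells and 3.03 and 3.05 in GO2 cells, the widest separation among the 10 genes. The difference was -1.93 (SE 0.05, adjusted p = 0.000286), and 1.11% of all tested probes had a lower one. It lay between -2.14 and -1.88 under all 18 alternatives. Of 5 genes listed with Ier3 for NF-kB and survival, 1 was higher, 2 were lower and 2 did not pass. Over all tested probes the shares were 17.0% higher and 18.9% lower. Nfkbia, an NF-kB target that encodes its inhibitor, was lower by a difference of -0.43, and Mcl1, a survival protein of the BCL2 family, was higher by 0.39, both past the test and under 2-fold. Ppp2r5c, a phosphatase subunit gene, was lower at -0.31 at its brightest probe only. Its other tested probes differed by -0.004 and -0.005 and did not pass. Nfkb1 (0.02) and Tnfaip3 (0.10) did not pass either.

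Atf3, a stress-induced member of the ATF family that acts mostly as a repressor, had levels of -1.26 and -1.13 in ID8G cells and -1.76 and -1.91 in GO2 cells. Both GO2 arrays were below both ID8G arrays. The difference was -0.64 (SE 0.08, adjusted p = 0.00924), and the adjusted p stayed between 0.0347 and 0.0499 with each array left out in turn. Among these 3 immediate early genes, 1 was therefore higher and 2 were lower in GO2 cells. The shares of all tested probes were 17.0% higher and 18.9% lower.

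Myc had levels of 0.97 and 0.96 in ID8G cells and 0.67 and 0.72 in GO2 cells. The lines did not overlap, and the difference of -0.27 (SE 0.05, adjusted p = 0.0234) was the smallest that passed. A second probe on the same transcript had overlapping lines, with levels of -1.81 and -1.40 in ID8G cells and -1.74 and -1.91 in GO2 cells, and a difference of -0.22 that did not pass (95% interval -0.66 to 0.23, adjusted p = 0.348). The call at the first probe was lost without any 1 array (adjusted p = 0.0955 without ID8G replicate 2, 0.112 without ID8G replicate 1, 0.0861 without GO2 replicate 2 and 0.113 without GO2 replicate 1) and with the mean of both probes (0.104).

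**Figure D3:**
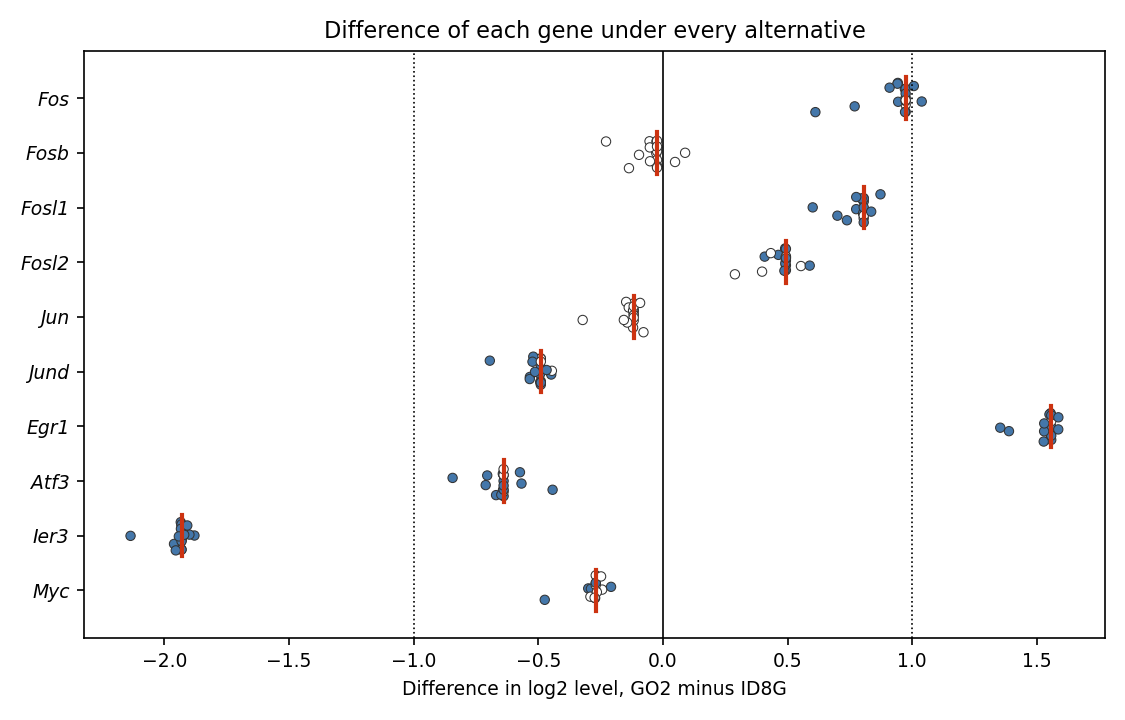
Difference in log2 level between GO2 and ID8G cells for each gene under every alternative (points) and as reported (red bars); filled points passed an adjusted p of 0.05. Egr1 and Ier3 stay beyond 2-fold throughout, Fos lies between 0.61 and 1.04, and the points of Fosb fall on both sides of 0.

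The promoters of genes that moved in the same or in opposite directions are shown for sequence that they share. Windows from the RefSeq table of GRCm38.p6 were searched for 7 of the genes, namely Fos, Fosb, Fosl2, Jun, Jund, Atf3 and Ier3. Those of Egr1, Fosl1 and Myc were not searched, so the motif counts say nothing about these genes. The 250 bases before the annotated start are given 5′ to 3′ on the strand of the gene for Fos and Fosl2, which were higher in GO2 cells, for Atf3 and Ier3, which were lower, and for Jun, which did not pass the test. The positions are chr12:85473640-85473889 (plus strand) for Fos, chr5:32136222-32136471 (plus) for Fosl2, chr4:95052223-95052472 (minus) for Jun, chr1:191183334-191183583 (minus) for Atf3 and chr17:35821463-35821712 (plus) for Ier3. Capitals mark TGACG, the core of the cAMP response element, read on either strand, TGACATCA, an AP-1 site variant, GCGNGGGCG, the EGR1 motif, and TATAAA.
Fos: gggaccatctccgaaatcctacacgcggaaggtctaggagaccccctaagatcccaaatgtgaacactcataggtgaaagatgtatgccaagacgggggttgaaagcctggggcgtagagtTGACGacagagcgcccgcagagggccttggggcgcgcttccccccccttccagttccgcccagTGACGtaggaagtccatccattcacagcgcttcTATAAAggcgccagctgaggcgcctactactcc
Fosl2: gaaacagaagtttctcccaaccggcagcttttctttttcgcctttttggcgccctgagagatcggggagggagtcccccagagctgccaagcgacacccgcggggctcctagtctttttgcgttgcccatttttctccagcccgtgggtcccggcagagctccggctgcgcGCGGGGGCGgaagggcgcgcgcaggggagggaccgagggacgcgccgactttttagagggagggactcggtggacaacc
Jun: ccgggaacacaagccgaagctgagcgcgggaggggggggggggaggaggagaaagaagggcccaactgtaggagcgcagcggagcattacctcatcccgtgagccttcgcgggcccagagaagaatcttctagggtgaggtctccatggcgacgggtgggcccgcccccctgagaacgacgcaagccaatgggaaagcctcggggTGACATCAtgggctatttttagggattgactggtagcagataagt
Atf3: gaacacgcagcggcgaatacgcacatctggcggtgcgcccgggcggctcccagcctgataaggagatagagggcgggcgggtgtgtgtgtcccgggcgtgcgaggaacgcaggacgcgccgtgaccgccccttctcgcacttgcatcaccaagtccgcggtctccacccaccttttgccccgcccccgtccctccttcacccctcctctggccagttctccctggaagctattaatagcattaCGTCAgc
Ier3: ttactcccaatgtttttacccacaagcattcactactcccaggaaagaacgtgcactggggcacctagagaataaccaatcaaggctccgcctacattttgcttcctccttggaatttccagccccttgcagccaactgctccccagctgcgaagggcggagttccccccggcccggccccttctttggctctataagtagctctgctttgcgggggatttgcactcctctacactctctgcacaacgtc

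Fos carried TGACG at 129 and at 66 bases before the start and a TATAAA at 33 bases. Atf3 carried TGACG on the reverse strand 7 bases before the start, and Fosb carried it at 60 bases, so that 3 of the 7 windows held it, against 17.8% of all 32851 windows. Jun carried TGACATCA at 45 bases before the start, a sequence found in 2.93% of all windows. Fosl2 carried the EGR1 motif at 79 bases and Fosb at 50 bases, where 4.70% of all windows held it. The full AP-1 site TGANTCA (6.75% of all windows), the full TGACGTCA (1.55%, which contains TGACG), the MYC and MAX motif CACGTG (6.02%) and the CArG box that SRF binds (1.47%) were in none of the 7 windows. The GC box GGGCGG, which overlaps the EGR1 motif in Fosb and Fosl2, was in 6 of the 7 windows and in 32.7% of all. All motifs were searched on both strands in 250 bases, and a match is a match of letters, not a bound site. Sequence outside these windows was not searched, so a motif absent here may still lie elsewhere near the gene.

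Of 15 tested genes for other AP-1 and related basic leucine zipper proteins, 5 were higher, 5 were lower and 5 did not pass the test. Among all tested probes, 17.0% were higher and 18.9% lower. Batf3, one of the 5 higher, was well above background on no ID8G array and entered the test only through its GO2 arrays. Maf, a large MAF protein, was the only one past 2-fold, with levels of -0.14 and 0.04 in ID8G cells and 1.44 and 1.41 in GO2 cells. Its difference was 1.48 (SE 0.08, adjusted p = 0.00104). The median difference of the list was 0.07.

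Of 33 tested other immediate early genes, 7 were higher, 14 were lower and 12 did not pass, with a median difference of -0.18. Among all tested probes, 17.0% were higher and 18.9% lower, or 4.50% and 3.34% with at least 2-fold. At least 2-fold higher were Id3, by 2.05, Ccn1, by 1.98, and Id2, by 1.32. ID proteins block basic helix-loop-helix factors, and Ccn1 encodes a matricellular protein that serum and YAP induce. Related genes of the same list went the other way, with Id1 at -0.86 (adjusted p = 0.00159) and Ccn2 at -0.87 (adjusted p = 0.00148). At least 2-fold lower were Ptgs2, at -1.85, Klf2, at -1.42, and Btg2, at -1.07. Ptgs2 encodes cyclooxygenase-2, Klf2 a Krüppel-like factor and Btg2 an antiproliferative protein. The standard errors of these 6 differences lay between 0.05 and 0.07. As among the 10 genes, immediate early transcripts differed in both directions.

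Of 24 tested genes for RAS, RAF, MAP kinases, SRF and its partners, 0 reached 2-fold, 2 were higher and 5 were lower by limma, and at an unadjusted p below 0.05 these counts were 5 and 5. By limma, 17.0% of all tested probes were higher, 18.9% were lower and 7.84% reached 2-fold. Srf itself had levels of 1.38 and 1.40 in ID8G cells and 1.57 and 1.52 in GO2 cells, a difference of 0.15 that did not pass (adjusted p = 0.0894).

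Reported AP-1 targets were also split, with 6 of 19 tested genes higher, 8 lower and 5 not past the test. Beside them, 17.0% of all tested probes were higher and 18.9% lower. The metallothionein genes Mt1 and Mt2 were higher, by 2.01 (SE 0.07) and 2.39 (SE 0.05). The collagenase and stromelysin genes Mmp13 and Mmp10 were lower, at -1.13 (SE 0.06) and -2.66 (SE 0.06). Mmp10 had levels of 0.97 and 1.08 in ID8G cells and -1.63 and -1.65 in GO2 cells. The median difference of the list was -0.15.

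Of 30 tested genes reported as MYC targets, 4 were higher, 5 were lower and 21 did not pass, with a median of 0.01, where 35.9% of all tested probes passed in either direction. Tfrc, the transferrin receptor gene, was the one past 2-fold, at -1.16 (SE 0.06, adjusted p = 0.000919), and its second probe gave -1.18. Among 12 MYC partners and paralogs, 5 were higher, 2 were lower and 0 reached 2-fold by limma, with the same counts of 5 and 2 at an unadjusted p below 0.05. Mycl, one of the 5 higher, was well above background on no ID8G array and entered the test only through its GO2 arrays. Max, the obligate partner of MYC, differed by 0.13 and did not pass (adjusted p = 0.220). Of 5 genes for the turnover of the MYC protein, 1 was lower and 4 did not pass, and 0 reached 2-fold by limma (0 higher and 1 lower at an unadjusted p below 0.05).

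**Figure D4:**
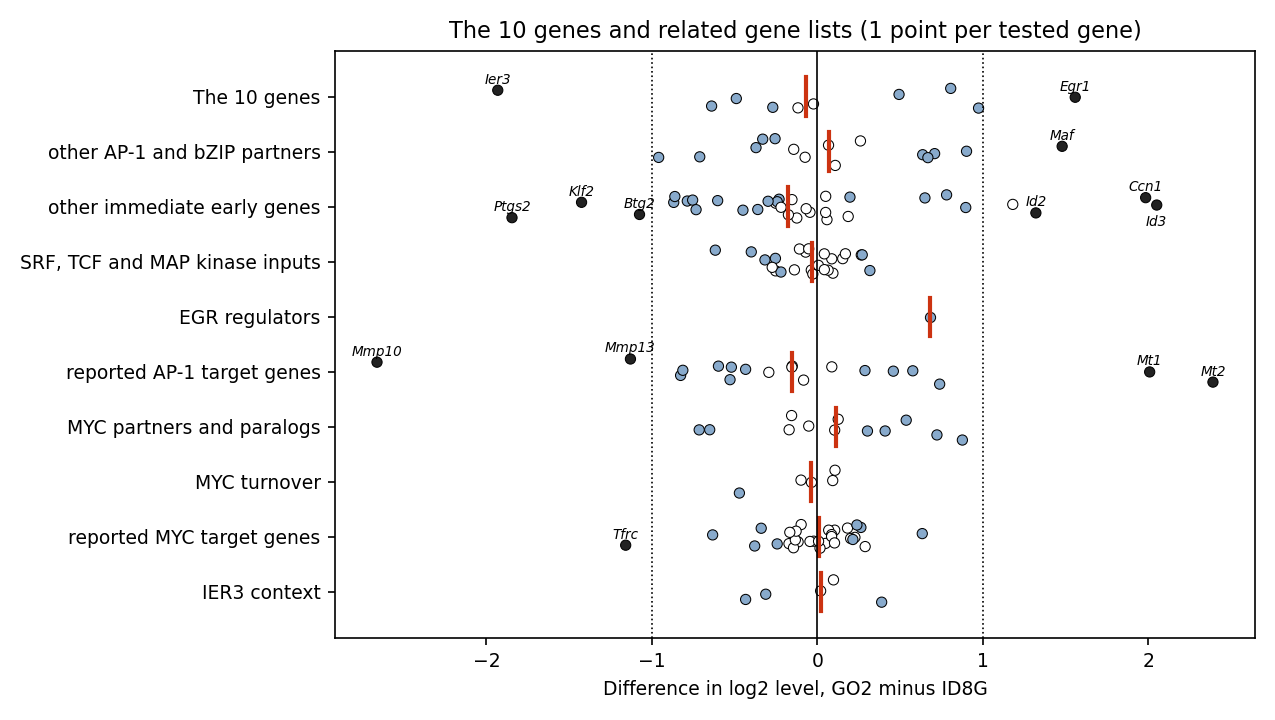
Difference in log2 level between GO2 and ID8G cells for the 10 genes and for related lists, 1 point per tested gene. Black points are named and passed an adjusted p of 0.05 with at least 2-fold, blue points passed it below 2-fold, open points did not pass, red bars are medians and dotted lines mark 2-fold; Batf3, Egr2 and Mycl, not well above background in ID8G cells, are drawn at their fitted values.

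Markers of cell types, among them cells that could accompany tumor cells, were read on the same arrays. The paper states that ID8 arose from mouse ovarian surface epithelial cells, so epithelial markers can belong to the lines themselves. Of 10 macrophage and leukocyte markers, 5 were well above background on no array, including Ptprc, which encodes CD45, and Adgre1, which encodes F4/80. The other 5 (Itgam, Csf1r, Cd14, Cd68 and Fcer1g) were well above background on all 4 arrays, Cd14 was lower in GO2 cells at -0.69 (adjusted p = 0.00210), and the rest did not pass. Itgam, which encodes CD11b, had levels of 4.18 and 4.39 in ID8G cells and 4.13 and 4.17 in GO2 cells. The array carries 2 probes of Itgam, and these levels are those of the 1 that was tested. Its other probe was too dim to be tested, so the bright signal of Itgam rests on 1 probe. The summed intensity of this list, relative to the 75th percentile, was 22.6 and 25.3 in ID8G cells and 21.9 and 22.0 in GO2 cells. Such a sum adds probes of different genes and is weighted toward the brightest, here Itgam. The fibroblast list differed between the lines, with sums of 71.2 and 68.5 in ID8G cells and 129.8 and 130.3 in GO2 cells. Its brightest probe in ID8G cells was that of Dcn, at 6.07 and 6.01. Of the 8 fibroblast genes, 4 passed 2-fold as higher (Pdgfra, Pdgfrb, Col1a1 and Col3a1), 1 was lower (Dcn), and Lum, Thy1 and Fap were well above background on no array. Over all tested probes, 17.0% were higher and 18.9% lower, or 4.50% and 3.34% with at least 2-fold. Pdgfrb was well above background on no ID8G array and entered the test only through its GO2 arrays, where it was at least 2.42-fold higher. The epithelial list summed to 561 and 543 in ID8G cells and 284 and 285 in GO2 cells, with Krt19 lower by 3.14-fold and Epcam and Krt7 well above background on no array. Of 6 mesothelial markers, 6 were tested, Upk3b was higher by 2.11-fold, Msln was lower, and the others, Wt1 among them, did not pass. Endothelial markers were well above background on no array for 5 of 6 genes. Of 5 adipocyte markers, Adipoq and Plin1 were well above background on no array, and Cidec only on 1 GO2 array. Fabp4 was at least 6.28-fold lower in GO2 cells, while Lep differed by -0.04 and did not pass. The part of these differences in the values of the 10 genes was not tested.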

How the data were processed

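RNA of ID8G and GO2 cells was labeled with Cy3 and hybridized to SurePrint G3 Mouse GE 8 × 60 K arrays, 2 per line, which lay on 1 slide. The authors deposited background-subtracted spot intensity values from Feature Extraction 11.5.1.1 without normalization across arrays. A deposited GeneSpring table of log2 values had column medians of 0.10 and -0.05 for ID8G and 0.04 and -0.05 for GO2, and differed from values rebuilt by scaling to the 75th percentile and centering each probe by a median of 0.000393. It served for 1 alternative. The number of arrays limits the precision.

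Outlier spots were left out, spots of a probe were averaged, and log2 intensity was scaled to the 75th percentile of each array. Limma 3.58.1 (R 4.3.3) compared the lines without covariates. A probe was tested if both arrays of a line were well above background, which held for 28368. Adjustment was by Benjamini-Hochberg over all of them. The scanner marked 132 to 195 outlier spots per array and 0 saturated spots. Probes were named by matching their RefSeq accession to a gene table of GRCm38.p6, which gave a symbol to 32994 of 56605 probes. The arrays were designed on mm9. The procedure was tested on simulated data.

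Named are the 10 genes and, per list, at most the 4 genes with the largest difference past 2-fold and a fixed partner (Junb, Srf, Nab2, Max). Nab1 was not analysed here, and some items of the lists are not reported here. Id1, Id2, Ccn2, Btg2, Batf3, Mycl, the genes listed with Ier3, the cell type markers named and the genes named in the other observations were chosen after their values were seen. The members, lists and sequence motifs were chosen with earlier results of these data known. The slide could not serve as a block. The alternatives were normexp with an offset of 50, quantile, median and spike-in scaling, other filters, a floor, outlier spots kept, an intensity trend, the methods' t-test (stated for comparisons of groups in general, not for the arrays), limma treat, the replicate block, the deposited values, the mean of the probes of a gene, and each array left out. Figures were drawn with matplotlib 3.10.9 in python 3.11.15.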

Additional observations from a re-analysis of the deposited data

How the results depend on the processing

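Of 179 values of the 10 genes under 18 alternatives, 148 kept their direction and their side of an adjusted p of 0.05, 29 no longer passed, 0 newly passed and 2 reversed (Fosb, 0.089 without GO2 replicate 2 and 0.05 without ID8G replicate 2, with -0.14 to 0.089 over the arrays left out in turn and -0.23 with spike-in scaling). Fos could not be tested where all 4 arrays had to be well above background. After adjustment, the methods' t-test passed 0 genes higher and 0 lower, and 0 of each at 2-fold, with adjusted p of 0.103 for Egr1 and 0.114 for Ier3; at its unadjusted p below 0.05 it passed 7 genes, and limma passed 8. In the related lists it called 0 genes higher and 0 lower, against 6 and 6. Limma treat, a stricter criterion, passed 1 gene higher and 1 lower, and 3 list genes lower. With no filter on dim probes, which tests 56605 probes, 1 of the 10 genes was lower and Atf3 (adjusted p = 0.0647), Jund (0.0686), Fosl2 (0.116) and Myc (0.159) no longer passed. Spike-in scaling moved the median of all tested probes from -0.02 to -0.23, the median of the 10 genes to -0.28 and the list genes called lower to 11. It took the share of higher probes among 2-fold calls from 57.4% to 43.7%, and the cause was not tested. Without 1 array the genes past 2-fold were 1 to 2 higher and 1 to 1 lower, those past the test 3 to 4 higher and 2 to 3 lower, the list genes 6 to 8 higher and 6 to 7 lower, and the median -0.13 to -0.01; a lone array was taken to vary as much as those of the other line. Of all tested probes, the share past 2-fold ran from 0.0106% to 5.03% lower and from 0 to 5.52% higher over the alternatives. With the replicate number as a block, Myc had an adjusted p of 0.050 and no other of the 10 genes changed its call. The replicate numbers did not pair arrays: differences between arrays 1 and 2 correlated between the lines at 0.0273 over probes. Signal over background limits Fos, Fosb and the dim probe of Fosl2.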

Other observations

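The 10 genes lie on 10 chromosomes. Set beside the 5 nearest tested genes on each side, a comparison chosen after seeing the data, their neighbors differed as follows. The 10 neighbors of Fos differed by -0.07 to 0.71, with 0 at or beyond the difference of Fos, and the highest was Jdp2, which encodes an AP-1 repressor that pairs with JUN. Its levels were 2.32 and 2.46 in ID8G cells and 3.08 and 3.12 in GO2 cells. The neighbors of Fosl2 differed by -0.34 to 0.20. Those of Egr1 had a median of -0.08 and a range from -1.75 (Reep2, at least 2-fold lower) to 0.07, and 1 of 10 was further from 0 than Egr1. Among the neighbors of Ier3 the median was 0.09 and the highest difference 0.56, and the lowest was 4833427F10Rik, which was called lower and was well above background in ID8G cells only. The neighbors of Fosl1 ranged from -0.22 to 0.84, with 1 of 10 further from 0 than Fosl1, and those of Fosb from -0.57 to 0.30. Those of Jun had a median of 0.12 and a lowest difference of -0.44, and the highest was Fggy, which was called higher and was well above background in GO2 cells only.

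The median difference of the 10 neighbors of Jund was -0.44, beside the -0.49 of Jund itself, 1 of the 10 was above 0, and 4 were further from 0 than Jund. The lowest was Gdf15, at -1.28, which encodes a stress-induced cytokine, and 2 of the neighbors were at least 2-fold lower. The neighbors of Myc had a median of -0.12 and a range from -1.27 to 1.05. The neighbors of Atf3 had a median of 0.12. The lowest was Gm31987, which was called lower, as Atf3 was lower, and was well above background in ID8G cells only. The highest was Batf3, an AP-1 factor of the ATF-like family, which was not well above background in ID8G cells and at least 1.52-fold higher in GO2 cells (limma adjusted p = 0.0115).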
